A study of Homo sapiens with 8 samples.

Results

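Genes of the hypoxia response and of glycolysis were followed in the neuroblastoma line BE2C, which is human and carries amplified MYCN, after inhibition or knockdown of the histone demethylase KDM6B. Members were found by gene symbol, from a list drawn up with earlier results of these data known. It lists 37 genes, of which 34 were measured among 17687 genes with a symbol, each by 1 probe set. They comprised 3 HIF transcription factors, 14 of 16 listed HIF targets and 17 of 18 listed glucose transporters and glycolytic enzymes. The expression of the HIF targets PFKFB4 and CA9 and of the lactate exporter SLC16A3 was not analysed here.

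RNA was hybridised to 8 Affymetrix Clariom S human arrays, 2 for each of 4 groups whose replicates the labels call biological. Cells received 0.1% DMSO or GSK-J4, a cell-permeable precursor of an inhibitor of the KDM6 demethylases, for 24 h, or were transfected for 48 h with control siRNA or KDM6B siRNA at 30 nM. All groups were 1 cell line in the same serum-containing medium, and the labels name no group kept under low oxygen. The labels give the GSK-J4 dose as 2.5 mM whereas the study's text uses micromolar doses, so that unit is uncertain, and no label names the siRNA sequence used for an array. Values are log2 expression, and all differences below are log2 differences, so that 1 unit is a 2-fold change. In RNA from whole cultures, fewer cells of a type and less RNA per cell cannot be told apart.

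Hypoxia inducible factors, or HIFs, are pairs of an oxygen-regulated alpha subunit, such as HIF1A or EPAS1, and the constant partner ARNT. In oxygenated cells prolyl hydroxylases mark the alpha subunit for destruction by the VHL ubiquitin ligase, so HIF is governed chiefly at the level of the protein and not of its mRNA. Stabilised HIF binds hypoxia response elements and raises genes for blood vessel growth, mitophagy, glucose uptake and glycolysis, and glycolysis itself turns glucose into pyruvate, which lactate dehydrogenase reduces to lactate.

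The core letters of the hypoxia response element were looked up in promoters, to show what the members whose mRNA moved, or did not move, carry near their start sites. RefSeq windows of 300 bases (GRCh38.p14, 250 bases before to 50 after a start site) were searched on both strands for ACGTG and GCGTG, and a CACGTG counts as ACGTG on each strand. The 250 bases before the most upstream start site are shown for 4 members, 5′ to 3′ on the gene's strand, with the matches in capitals. They are BHLHE40 (chr3:4979187-4979436, plus strand) and COXFA4L2 (chr12:57240763-57241012, minus strand), which rose with GSK-J4, LOX (chr5:122078260-122078509, minus strand), which fell with KDM6B siRNA, and LDHA (chr11:18394313-18394562, plus strand), which passed in neither comparison.
BHLHE40: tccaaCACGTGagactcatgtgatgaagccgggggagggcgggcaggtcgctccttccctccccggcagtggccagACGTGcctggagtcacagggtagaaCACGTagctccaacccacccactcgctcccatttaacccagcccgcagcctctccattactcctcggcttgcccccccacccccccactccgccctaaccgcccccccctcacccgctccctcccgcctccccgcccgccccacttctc
COXFA4L2: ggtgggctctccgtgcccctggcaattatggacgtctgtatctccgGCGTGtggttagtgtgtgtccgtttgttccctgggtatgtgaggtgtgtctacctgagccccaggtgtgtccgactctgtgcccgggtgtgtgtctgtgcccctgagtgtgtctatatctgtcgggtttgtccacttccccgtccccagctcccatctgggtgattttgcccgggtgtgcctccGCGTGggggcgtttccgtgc
LOX: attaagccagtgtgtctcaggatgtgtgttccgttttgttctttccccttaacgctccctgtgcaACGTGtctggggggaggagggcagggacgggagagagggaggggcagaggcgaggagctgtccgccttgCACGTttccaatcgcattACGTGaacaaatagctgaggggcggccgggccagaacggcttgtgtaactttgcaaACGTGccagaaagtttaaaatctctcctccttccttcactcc
LDHA: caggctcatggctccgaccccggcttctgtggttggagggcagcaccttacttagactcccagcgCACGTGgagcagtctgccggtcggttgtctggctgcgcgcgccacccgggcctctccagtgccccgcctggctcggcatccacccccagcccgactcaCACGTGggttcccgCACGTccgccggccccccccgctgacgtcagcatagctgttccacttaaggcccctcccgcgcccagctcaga

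The BHLHE40 stretch held 4 matches to ACGTG, that of LOX 4 and that of LDHA 5, while the COXFA4L2 stretch held none of these and 2 matches to GCGTG. Of 35116 windows in the table, 21.4% held ACGTG and 48.4% held either form, and of the windows of genes measured here 23% and 54.8% did. Windows were counted for all listed members with a window, measured or not. The 17 windows of 12 HIF targets, PFKFB4 and CA9 among them, held ACGTG in 10 (58.8%) and either form in 16 (94.1%). The 41 windows of 17 glycolysis genes, with SLC16A3 but without SLC2A3, held ACGTG in 15 (36.6%) and either form in 25 (61%). Of the 8 members that rose with GSK-J4, VEGFA, NDRG1 and BNIP3L had no window. For the other 5, 8 of 11 windows held either form (72.7%), against 30 of 44 windows (68.2%) for 24 measured members that did not pass. Windows of the same gene are not independent, and so few cannot show whether these members differ from the others. A match is a run of letters and does not show that HIF binds there.

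KDM6B itself was read at 8.27 and 8.35 with control siRNA and at 7.22 and 5.76 with KDM6B siRNA. Both knockdown arrays were lower than both control arrays, but by unequal amounts, and the mean difference of -1.82 (SE 0.39) had an adjusted p of 0.0878 (limma). Without KDM6B siRNA replicate 1 the difference was -2.56, and without replicate 2 it was -1.09. It was -1.87 without control siRNA replicate 1 and -1.78 without control siRNA replicate 2. Each of these fits leaves 1 array in a group. KDM6B was read at 8.17 and 8.47 with DMSO and at 9.41 and 9.18 with GSK-J4 (0.98, adjusted p = 0.25). Replicates correlated at 0.994 to 0.996 in 3 groups and at 0.974 in the KDM6B siRNA group, where 906 genes lay over 1 unit apart, against 3 to 8 in the other groups. Members followed the same pattern, with a median gap between replicates of 0.37 in the KDM6B siRNA group and of 0.08 to 0.12 elsewhere. All 9 measured adrenergic neuroblastoma markers were above background on all 8 arrays. Of 5 immune markers 2 were above background on all arrays and 2, CD3E and LYZ, on none. Of 3 measured Schwann cell markers 2 were above background on all arrays and 1, ERBB3, on none. Of 6 fibroblast markers, 5 were above background on all arrays.

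At an adjusted p under 0.05 (limma), GSK-J4 treatment raised HIF targets, led by COXFA4L2, BHLHE40 and VEGFA, and 1 enzyme of glycolysis. Of 14 HIF targets 7 rose and none fell, with a median difference of 1.02, whereas of 17 glycolysis genes 1 rose and none fell, with a median of 0.31. Over all genes 2.29% rose and 1.41% fell, and the median was -0.02. In all, 8 of 34 members rose. Both GSK-J4 arrays lay above both DMSO arrays for 24 members and below them for 4, where 25.5% and 28.6% of all genes did so. The 24 took in 10 of 14 HIF targets and 12 of 17 glycolysis genes, and the 4 took in 1 and 2. An unadjusted p under 0.05 (limma), in either direction, held for 8 HIF targets and 10 glycolysis genes, against 17% of all genes. None of the 3 HIF transcription factors passed. Some markers of other cells moved in the same comparison. The mean level of the 6 fibroblast markers was 7.06 and 7.03 with DMSO and 6.61 and 6.72 with GSK-J4, with a median difference of -0.42 and none passing, and DCN (-0.79), LUM (-0.92) and PDGFRB (-0.66) were below on both arrays. DCN, LUM and PDGFRB passed as lower when 1 KDM6B siRNA array was left out, a setting in which more of all genes passed too. The immune marker CD14 fell (-0.66, adjusted p = 0.0335, limma), a call lost without any 1 of the DMSO, GSK-J4 or control siRNA arrays. Of the 5 immune markers 3 had a difference above 0 and 2 below, with a median of 0.09. The mean of the adrenergic markers was 10.33 and 10.29 with DMSO and 10.22 and 10.24 with GSK-J4. The part of these shifts in the result was not tested.

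The mRNAs of the HIF subunits differed by at most 0.27 in size. HIF1A was read at 10.66 and 10.63 with DMSO and at 10.31 and 10.47 with GSK-J4, a difference of -0.25 (95% confidence interval -0.52 to 0.02, adjusted p = 0.332, limma). The values did not overlap, and the GSK-J4 arrays were the lower ones. EPAS1, the other alpha subunit, was at 9.80 and 9.94 with DMSO and at 9.99 and 10.16 with GSK-J4 (0.20, interval -0.19 to 0.59, adjusted p = 0.639). ARNT was at 8.67 and 8.52 against 8.85 and 8.89 (0.27, interval -0.14 to 0.69, adjusted p = 0.515). Both of these lay slightly higher on the GSK-J4 arrays.

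COXFA4L2, formerly NDUFA4L2, a mitochondrial protein known to restrain respiration in hypoxia, had the largest difference of the group. It was read at 4.46 and 4.69 on the DMSO arrays, neither above background, and at 8.76 and 8.92 on the GSK-J4 arrays. The GSK-J4 values were thus at least 17.0-fold higher, taking each DMSO array at the 95th percentile of its negative controls where the gene lay below that, and the measured difference was 4.26 (SE 0.18, adjusted p = 1.7e-05). BHLHE40, a transcriptional repressor tied to the circadian clock, was at 6.12 and 6.18 with DMSO and at 8.90 and 8.76 with GSK-J4, a 6.4-fold rise (2.68, SE 0.12, adjusted p = 2.73e-05). The treated arrays of both genes stood far from every other array, as the plot of members by array shows.

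**Figure D1:**
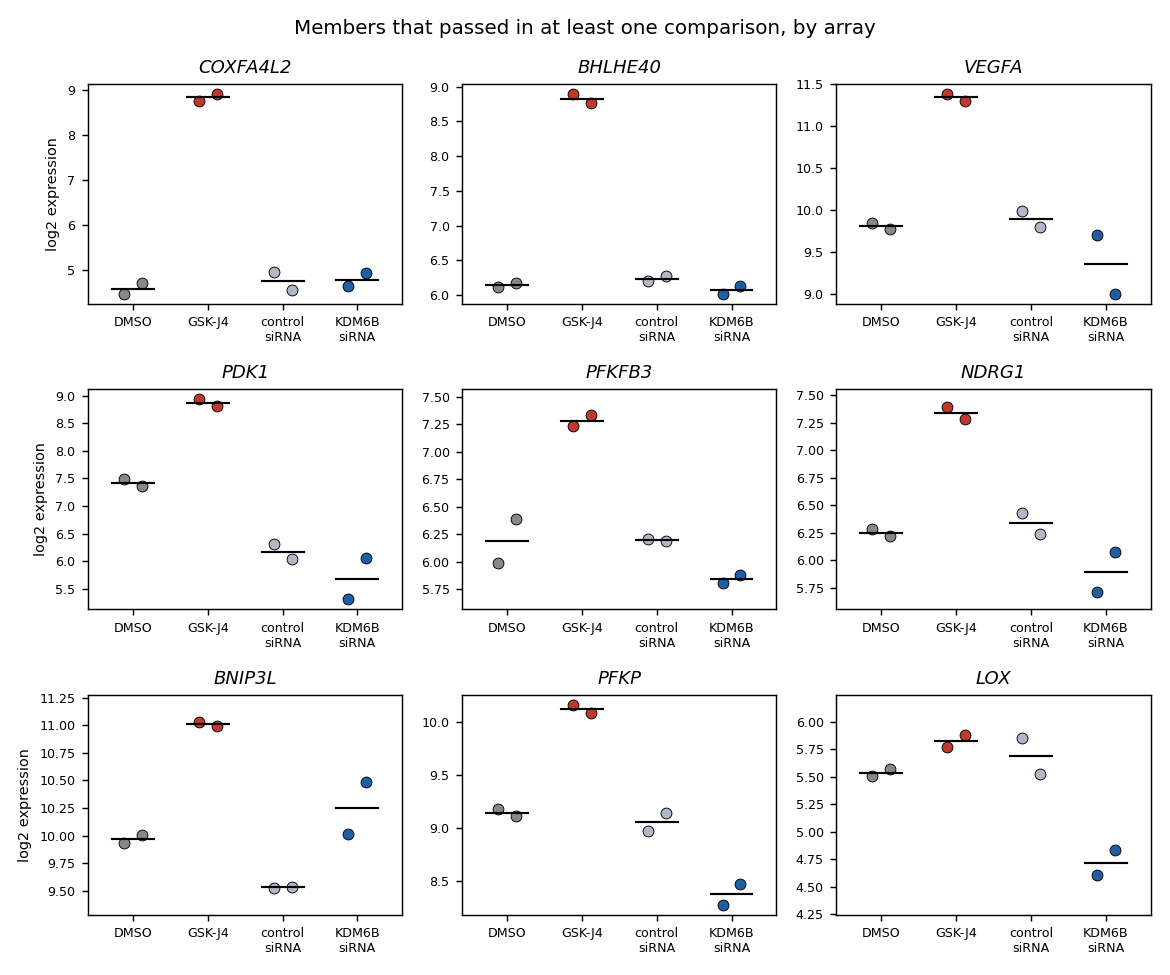
Log2 expression on each of the 8 arrays for the 9 members that passed in at least 1 of the comparisons. Points are arrays, 2 per group, and lines are group means. Axes differ between panels and do not start at 0. The GSK-J4 arrays lie above the DMSO arrays in each panel, and only LOX passed with KDM6B siRNA.

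The other HIF targets that rose act on blood vessels, glucose metabolism and mitochondria. VEGFA, the growth factor for blood vessels, was at 9.84 and 9.78 with DMSO and at 11.39 and 11.30 with GSK-J4 (1.53, SE 0.21, adjusted p = 0.00998), a 2.9-fold rise. PDK1, the kinase that switches off pyruvate dehydrogenase and so keeps pyruvate out of the mitochondrion, was at 7.49 and 7.36 and then at 8.94 and 8.81 (1.45, SE 0.23, adjusted p = 0.017). PFKFB3, which makes the allosteric activator of phosphofructokinase, was at 5.99 and 6.39 with DMSO and at 7.23 and 7.34 with GSK-J4 (1.09, SE 0.15, adjusted p = 0.0102). For none of these did the groups overlap, and the gap between groups exceeded that between replicates.

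NDRG1, a stress-responsive protein with roles in differentiation, was at 6.29 and 6.22 with DMSO and at 7.40 and 7.29 with GSK-J4 (1.09, SE 0.15, adjusted p = 0.0109). BNIP3L, a mitophagy receptor of the outer mitochondrial membrane, was at 9.931 and 10.007 and then at 11.035 and 10.999 (1.05, SE 0.16, adjusted p = 0.0155). Its close relative BNIP3 differed by a like amount, from 9.97 and 9.99 to 10.99 and 10.97 (1.00, interval 0.26 to 1.74), but did not pass (adjusted p = 0.152). The 2 BNIP3 arrays within each of these groups lay close together, and its standard error of 0.32 takes in the KDM6B siRNA arrays, at 8.25 and 9.46. BNIP3 passed when the fit held only the 4 arrays of the comparison.

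Not every HIF target was higher. Besides BNIP3, the 6 that did not pass ranged from -0.39 for HILPDA, a lipid droplet protein, to 0.35 for ADM, the vasodilator peptide adrenomedullin. HILPDA was at 6.71 and 6.67 with DMSO and at 6.13 and 6.47 with GSK-J4, so both treated arrays were lower (interval -0.81 to 0.03, adjusted p = 0.326). CA12, a carbonic anhydrase, ANKRD37 and PDK3, a second pyruvate dehydrogenase kinase, lay within 0.07 of 0 and their arrays overlapped. PDK1 and PDK3 thus had differences of 1.45 and -0.03, with intervals of 0.92 to 1.98 and -0.50 to 0.44.

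**Figure D2:**
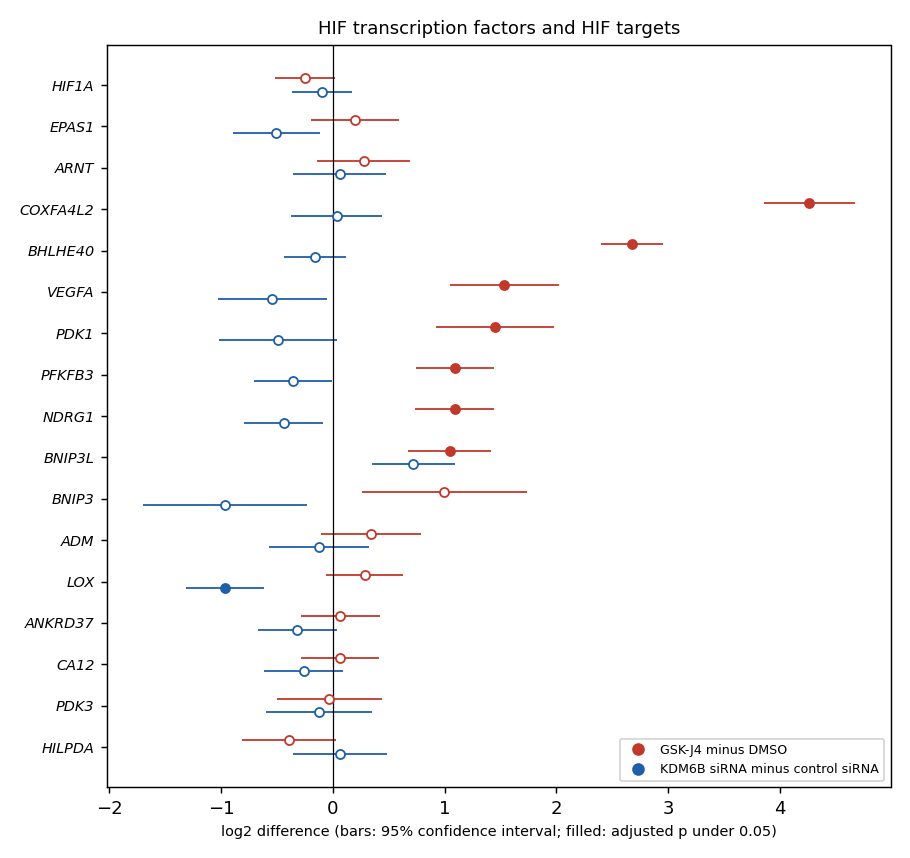
Log2 differences of the HIF transcription factors and HIF targets for GSK-J4 against DMSO (red) and KDM6B siRNA against control siRNA (blue), with 95% confidence intervals from limma and filled points for an adjusted p under 0.05. With GSK-J4, 7 targets are filled and reach from 1.05 to 4.26, while with KDM6B siRNA only LOX is filled, at -0.96.

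In glycolysis, PFKP was the only member to rise. PFKP, the platelet-type isoform of phosphofructokinase, was read at 9.18 and 9.11 with DMSO and at 10.16 and 10.09 with GSK-J4 (0.98, SE 0.13, adjusted p = 0.00899). Of the other isoforms of this enzyme, PFKL differed by 0.75 (interval 0.20 to 1.30, adjusted p = 0.15) and PFKM by -0.01 (interval -0.33 to 0.31). The glucose transporter SLC2A3, known from neurons, missed the threshold narrowly. It was at 6.97 and 7.12 with DMSO and at 8.28 and 8.25 with GSK-J4 (1.22, SE 0.27, adjusted p = 0.0504). SLC2A1, the widespread transporter, was at 9.16 and 9.11 and then at 10.21 and 10.19 (1.06, SE 0.34, adjusted p = 0.153). Both transporters were higher on each GSK-J4 array than on either DMSO array.

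The remaining enzymes did not pass. The hexokinases HK1 (0.26) and HK2 (0.69), GPI (0.36), the aldolases ALDOA (0.39) and ALDOC (0.48), TPI1 (0.12), PGK1 (0.28) and the enolase ENO2 (0.31) were higher on both GSK-J4 arrays than on either DMSO array. The arrays of ENO1 (0.06) and of the pyruvate kinase PKM (0.02) overlapped. PGAM1 and LDHA lay below 0, at -0.34 (interval -0.77 to 0.09) and -0.31 (interval -0.60 to -0.03). LDHA, which makes lactate from pyruvate, was at 7.71 and 7.62 with DMSO and at 7.25 and 7.45 with GSK-J4, so its arrays did not overlap and the treated ones were lower (adjusted p = 0.25). The intervals of ENO1, TPI1 and PKM had upper ends of 0.32, 0.52 and 0.43, so a 2-fold rise lay outside each.

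**Figure D3:**
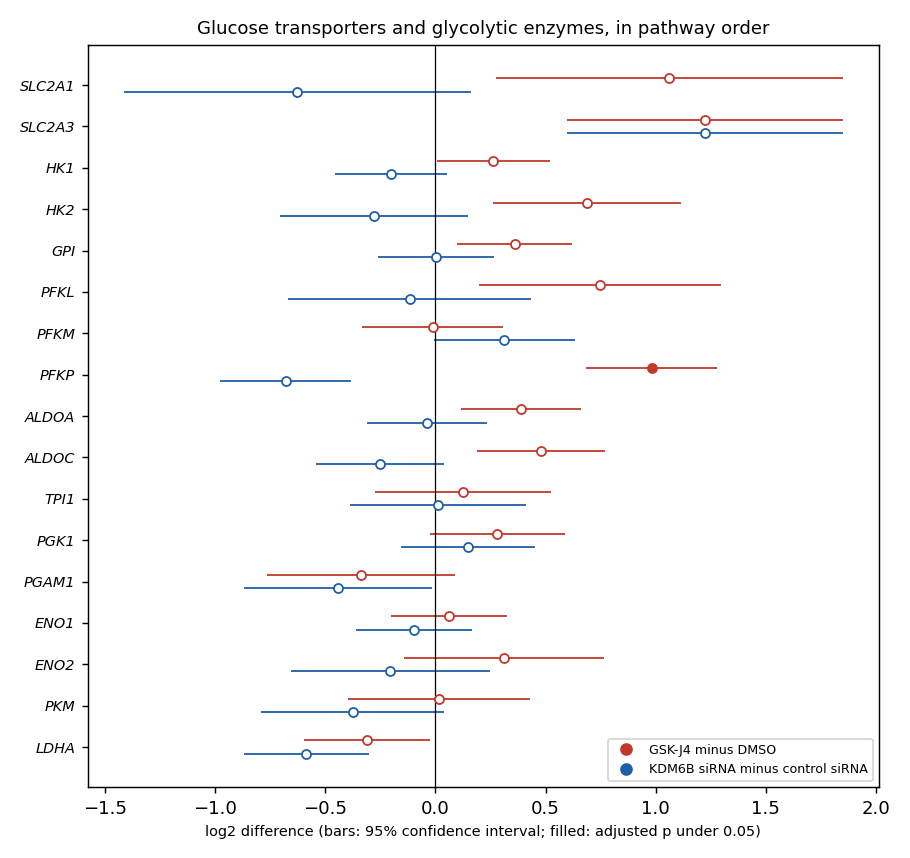
Log2 differences of the glucose transporters and glycolytic enzymes in pathway order, from uptake at the top to lactate at the bottom, for GSK-J4 against DMSO (red) and KDM6B siRNA against control siRNA (blue), with 95% confidence intervals and filled points for an adjusted p under 0.05. PFKP, at 0.98, is the only filled point, and PGAM1 and LDHA lie left of 0 in both comparisons.

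The counts with GSK-J4 depended on which arrays entered the fit, for all genes as for the members. Fewer of all genes passed when a DMSO or a GSK-J4 array was left out. With any 1 array left out, the median difference of the HIF targets stayed between 0.94 and 1.03. COXFA4L2 and BHLHE40 passed in all 17 alternative limma fits. With DMSO replicate 1, GSK-J4 replicate 1 or GSK-J4 replicate 2 left out, they were the only HIF targets that passed (2 of 14), and with DMSO replicate 2 left out PFKFB3 passed beside them (3 of 14). PFKP passed in none of these 4 fits. Leaving out either KDM6B siRNA array, which does not belong to this comparison but enters the shared spread, gave 8 of 14 HIF targets and 8 of 17 glycolysis genes, among them SLC2A1, SLC2A3, HK2, GPI, PFKL, ALDOA and ALDOC. In these fits 14.3% of all genes passed in either direction, against 3.7% with all arrays.

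KDM6B knockdown raised none of the members, and 1 fell. Of all genes 0.113% rose and 0.492% fell in this comparison. The member that fell was LOX, the secreted oxidase that cross-links collagen, which was read at 5.85 and 5.52 with control siRNA and at 4.61 and 4.83 with KDM6B siRNA, with 1 of the latter arrays not above background. The difference was -0.96 (SE 0.15, adjusted p = 0.0413). LOX passed in 8 of 17 alternative limma fits, and leaving out any 1 of the 6 arrays other than those with KDM6B siRNA ended the call, as with control siRNA replicate 1 (adjusted p = 0.376) and replicate 2 (adjusted p = 0.241). With GSK-J4, LOX was at 5.77 and 5.88 against 5.51 and 5.57 with DMSO (0.29, adjusted p = 0.396).

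Without reaching the threshold, most members lay lower after knockdown. The median was -0.29 for the HIF targets and -0.20 for the glycolysis genes, against 0.01 for all genes. For 18 of 34 members the knockdown arrays were both under the lower control array and for 4 both over the higher one, against 19.7% and 22.2% of all genes. Taken alone, KDM6B siRNA replicate 1 gave medians of -0.20 and -0.11 for these lists and replicate 2 gave -0.29 and -0.34. The adrenergic markers moved in the same comparison. Their mean level was 10.12 and 10.16 with control siRNA and 9.76 and 9.04 with KDM6B siRNA, all 9 had a difference below 0, and TH passed (-1.04, adjusted p = 0.0196). The TH call was lost without any 1 of the DMSO, GSK-J4 or control siRNA arrays. For 7 of the 9 markers both knockdown arrays were below both control arrays, against 19.7% of all genes. The mean level of the fibroblast markers was 7.19 and 7.07 with control siRNA and 7.81 and 7.47 with KDM6B siRNA, with none passing. Of the 6 differences 4 lay above 0 and 2 below. The knockdown replicates were far apart for PDGFRA (6.90 and 4.58, controls 4.65 and 4.42) and for PDGFRB (8.73 and 6.36, controls 7.97 and 7.81). For 3 of the 6 both knockdown arrays were above both control arrays, against 22.2% of all genes. What part these shifts have in the result was not tested.

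The HIF subunits were again close to their controls. HIF1A was at 10.73 and 10.70 with control siRNA and at 10.64 and 10.60 with KDM6B siRNA (-0.10, adjusted p = 0.765), and ARNT was at 8.41 and 8.40 against 8.74 and 8.18 (0.06, adjusted p = 0.918). EPAS1 was at 8.83 and 9.11 with control siRNA and at 8.65 and 8.28 with KDM6B siRNA. The EPAS1 arrays did not overlap and the knockdown arrays were lower (-0.51, interval -0.90 to -0.11, adjusted p = 0.231).

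Among the glycolysis genes the knockdown values went different ways. PFKP was at 8.97 and 9.14 with control siRNA and at 8.28 and 8.47 with KDM6B siRNA (-0.68, adjusted p = 0.0674), and LDHA was at 7.83 and 7.76 against 7.19 and 7.22 (-0.59, adjusted p = 0.0843). In both genes the knockdown arrays lay close together and below the controls. SLC2A3 was higher, at 6.81 and 6.96 with control siRNA and 7.61 and 8.60 with KDM6B siRNA (1.22, adjusted p = 0.0959), and so was BNIP3L, at 9.52 and 9.54 against 10.01 and 10.49 (0.72, adjusted p = 0.0983). SLC2A1 was at 8.83 and 9.05 against 8.96 and 7.66, so that only replicate 2 was low.

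Leaving out 1 KDM6B siRNA array removed most of the replicate spread and changed the counts. Without replicate 1, 11 members fell and 2 rose, and without replicate 2, 6 fell and 1 rose. Of all genes 19.9% and 5.46% passed in these fits, in either direction, against 0.605% with all arrays. In each of these fits the lone knockdown array is assumed to vary as the other groups do. LOX, LDHA and PFKP fell and SLC2A3 rose in both fits, and the SLC2A3 difference was 1.72 without replicate 1 and 0.73 without replicate 2. BNIP3, NDRG1 and PDK1 fell only without replicate 2, whereas SLC2A1, PKM, PGAM1, ENO2, PFKL, VEGFA, ANKRD37 and EPAS1 fell, and BNIP3L rose, only without replicate 1.

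The effects of GSK-J4 and of KDM6B siRNA were then set against each other with a contrast of the 2 differences. They share no array, but they differ in time and in delivery, which cannot be told apart from the agent. For 8 of 34 members the GSK-J4 effect was higher and for none lower, where 0.746% of all genes were called higher and 0.175% lower. COXFA4L2 had a difference between effects of 4.23 (adjusted p = 0.000494), with knockdown values of 4.64 and 4.92 against 4.94 and 4.54 in its controls. Neither DMSO array and only 1 array in each siRNA group was above background for COXFA4L2, so this size rests on values at the background, while the GSK-J4 rise alone was bounded as at least 17.0-fold. For BHLHE40, at 6.02 and 6.13 with KDM6B siRNA and 6.20 and 6.28 with control siRNA, it was 2.84 (adjusted p = 0.000494). These 2 genes passed in all 16 alternative fits. The smaller differences were 2.07 for VEGFA (adjusted p = 0.0256), 1.94 for PDK1 (0.0385), 1.66 for PFKP (0.00839), 1.53 for NDRG1 (0.0238), 1.45 for PFKFB3 (0.0275) and 1.25 for LOX (0.0419).

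VEGFA was at 9.99 and 9.80 with control siRNA and at 9.705 and 9.005 with KDM6B siRNA, and NDRG1 was at 6.43 and 6.24 against 5.71 and 6.08. PFKFB3 was at 6.21 and 6.19 against 5.80 and 5.88, and PDK1 at 6.31 and 6.04 against 5.31 and 6.06. Only the PDK1 arrays overlapped, and the knockdown means of these 4 genes were below their controls. With any 1 array left out, the median difference between effects of the HIF targets stayed between 1.23 and 1.44. Fewer members, and fewer of all genes, passed without any 1 of the 6 arrays of the DMSO, GSK-J4 and control siRNA groups. COXFA4L2 and BHLHE40 passed each time. More members, and more of all genes, passed without either KDM6B siRNA array.

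SLC2A3 and BNIP3L were higher in both comparisons. For SLC2A3 both effects were 1.22 and their difference was 0.00, with an interval of -0.88 to 0.88 that leaves the sign unsettled. For BNIP3L, at 1.05 and 0.72, the difference was 0.33 (interval -0.20 to 0.85, adjusted p = 0.653). Over the whole group 21 of 34 members were higher with GSK-J4 and lower with KDM6B siRNA, 7 were higher in both, 4 lower in both and 2 lower and then higher. Among all genes 19.4% were higher with GSK-J4 and lower with KDM6B siRNA. With the arrays of both comparisons not overlapping, 11 members were above with GSK-J4 and below with KDM6B siRNA, against 3.84% of all genes, and 3 members, SLC2A3, BNIP3L and PGK1, were above in both, against 7.51% of all genes.

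The control groups were close to each other for most members. The control siRNA mean differed from the DMSO mean by over 0.5 in 2 of 34 members, where 1.71% of all genes did so. PDK1 was lower by 1.25 and EPAS1 by 0.90 in the control siRNA group. Transfection and the later harvest cannot be told apart in these values.

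Related genes outside the group were read from lists of the same pathways. Of 38 other HIF targets measured, 16 rose with GSK-J4 and none fell, with a median of 0.65. Over all genes 2.29% rose and 1.41% fell, with a median of -0.02. DDIT4, an inhibitor of mTOR signalling, went from 8.23 and 8.12 to 10.33 and 10.54 (2.27), and KDM3A, a histone demethylase, from 4.67 and 5.12 to 6.98 and 7.12 (2.16). P4HA2, a subunit of the collagen prolyl hydroxylase, differed by 2.06 and STC2, a secreted glycoprotein, by 2.01. Taken alone, GSK-J4 replicate 1 gave a median of 0.66 for these 38 genes and replicate 2 gave 0.72. Fewer of the 38, and fewer of all genes, passed when a DMSO, GSK-J4 or control siRNA array was left out. More of the 38, and more of all genes, passed when a KDM6B siRNA array was left out. Where 0.113% of all genes rose with KDM6B siRNA, 1 of the 38 did. It was CCNG2, an atypical cyclin, at 6.87 and 7.04 with control siRNA and 7.83 and 8.30 with KDM6B siRNA (1.10, adjusted p = 0.0455), and it also rose with GSK-J4 (1.31, adjusted p = 0.00949). The CCNG2 call with KDM6B siRNA was lost when any of the 6 arrays of the other groups was left out. The GSK-J4 effect was called higher than the knockdown effect for 0.746% of all genes and lower for 0.175%. Among the 38 it was higher for 9 and lower for none, with DDIT4 (2.30), STC2 (2.14), CXCR4 (1.80) and KDM3A (1.78) at the top. In this contrast fewer of the 38, and fewer of all genes, passed without a DMSO, GSK-J4 or control siRNA array. More of the 38, and more of all genes, passed without either KDM6B siRNA array.

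The oxygen sensors and partners of HIF showed no calls with either agent. None of 16 measured HIF regulators passed with GSK-J4 (median 0.21) or with KDM6B siRNA (median 0.05), where 7 and 4 had an unadjusted p under 0.05 (limma), as 17% and 14.6% of all genes did. The prolyl hydroxylase EGLN1 was at 8.083 and 7.996 with DMSO and at 8.393 and 8.385 with GSK-J4, and VHL was at 7.47 and 7.39 against 7.39 and 7.24. SIAH2, a ubiquitin ligase that acts on prolyl hydroxylases, had a difference between effects of 1.11 (adjusted p = 0.0367), a call that was lost without any 1 of the DMSO, GSK-J4 or control siRNA arrays. With 1 KDM6B siRNA array left out, whichever it was, 5 of the 16 regulators passed with GSK-J4, 4 of them higher, where 14.3% of all genes passed. In the knockdown comparison 3 rose and 3 fell without KDM6B siRNA replicate 1, where 19.9% of all genes passed, and 1 fell without replicate 2, where 5.46% did.

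Other branches of glucose metabolism had few calls. Over all genes 2.29% rose with GSK-J4, 1.41% fell and 17% had an unadjusted p under 0.05 (limma). Of 21 other glycolysis and lactate genes 2 fell with GSK-J4, TIGAR (-0.99), a fructose bisphosphatase that restrains glycolysis, and BPGM (-0.61), the bisphosphoglycerate mutase, and both calls were lost without any 1 of the DMSO, GSK-J4 or control siRNA arrays. None of 11 genes of pyruvate entry into mitochondria (median -0.16) and none of 10 of gluconeogenesis and the pentose phosphate route (median -0.04) passed with GSK-J4, where 1 and 2 had an unadjusted p under 0.05. PCK2, a gluconeogenic enzyme, differed by 0.89 and G6PC3, a glucose phosphatase, by -0.57. With 1 KDM6B siRNA array left out, whichever it was, PCK2 rose and G6PC3 and TALDO1 fell with GSK-J4 (3 of 10), and 4 of the 21 other glycolysis genes passed, with PGM1 and PGM2 added, where 14.3% of all genes passed. In a list of 9 glucose-sensing genes 3 rose with GSK-J4, against 2.29% of all genes. TXNIP, which restrains glucose uptake, went from 7.82 and 7.88 to 10.00 and 10.26 (2.27), its relative ARRDC4 differed by 1.77 and the zinc finger factor KLF10 by 1.65. None of the 3 passed when a DMSO or a GSK-J4 array was left out, KLF10 was also lost without a control siRNA array, and with KDM6B siRNA none of the 9 passed.

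**Figure D4:**
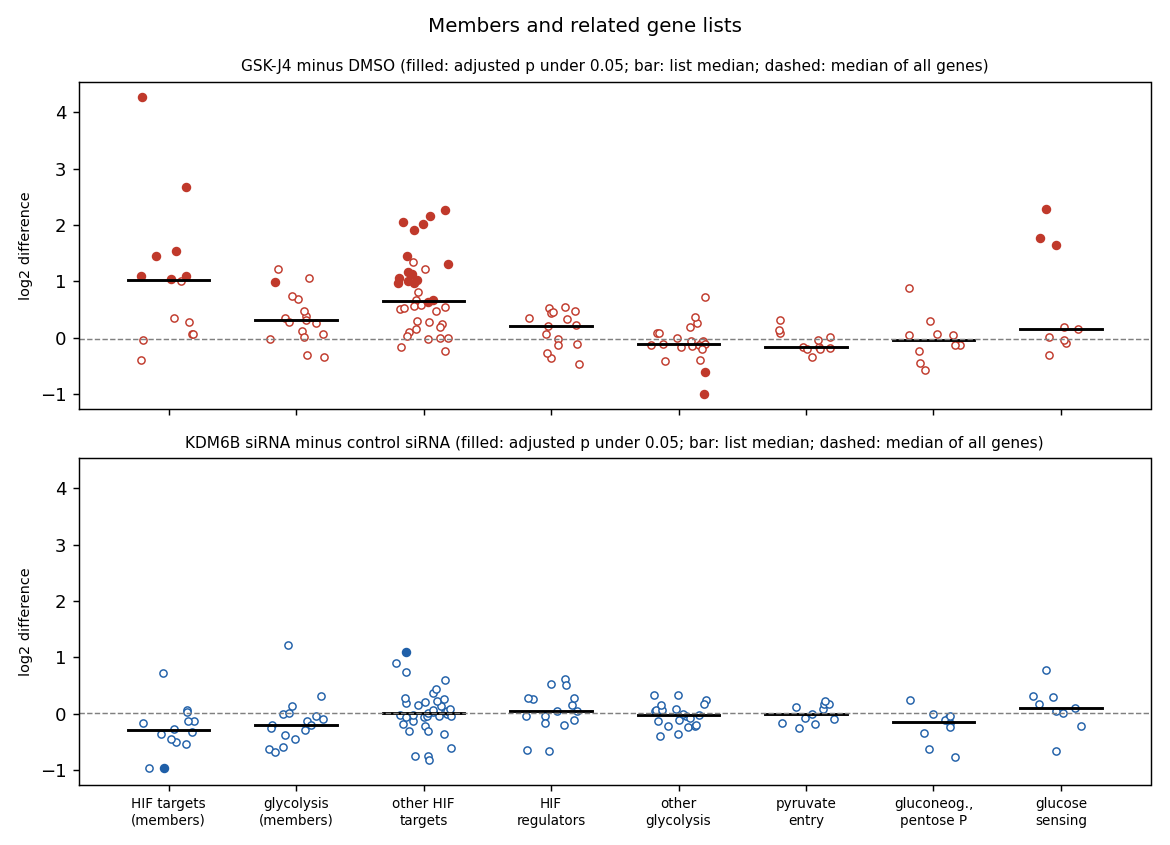
Log2 differences of single genes in the member lists and in related gene lists, for GSK-J4 against DMSO (top) and KDM6B siRNA against control siRNA (bottom). Filled points have an adjusted p under 0.05, bars are list medians and the dashed line is the median of all genes. With GSK-J4 the medians of the HIF target lists, 1.02 and 0.65, lie above those of the other lists, and with KDM6B siRNA 2 points are filled, LOX and CCNG2.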

How the data were processed

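The authors deposited log2 expression values, 1 for each probe set on each array. The submitters' processing notes name GCOS, and how background, scaling and probes were handled is not given in the sources used here. The log2 scale was read from the range of the values. Symbols came from the platform annotation, and a gene was represented by its probe set with the highest mean. A gene was called above background on an array over the 95th percentile of the negative control probe sets. Testing used limma (version 3.58.1, R 4.3.3, two-sided, 1 coefficient per group, all 8 arrays, 4 residual and 4.18 prior degrees of freedom), with p-values adjusted by Benjamini-Hochberg over 17687 genes at 0.05. P-values set a difference against the spread between replicates, which is shared over all 4 groups, and precision is limited by 2 arrays per group. The script was tested on simulated data. Members passing in any comparison and the HIF factors are named with values on every array, and up to 4 genes that passed with the largest differences from each other list; other genes are examples chosen after their values were seen. The members and lists were chosen with earlier results of these data known. Alternatives were other scalings, priors, array weights, a filter on dim genes, a replicate block, leaving out each array, and the methods' t test.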

Additional observations from a re-analysis of the deposited data

Results flagged for a closer look

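For 8 members the effect of GSK-J4 was higher than that of KDM6B siRNA by limma's test of the difference between the effects. The differences, in log2 units, were 4.23 for COXFA4L2, 2.84 for BHLHE40, 2.07 for VEGFA, 1.94 for PDK1, 1.66 for PFKP, 1.53 for NDRG1, 1.45 for PFKFB3 and 1.25 for LOX, with adjusted p from 0.000494 to 0.0419. For COXFA4L2 the DMSO arrays and 1 array in each siRNA group were not above background, so the size of its difference rests on values at the background. In LOX the knockdown effect (-0.96) was the larger part, and in the other 7 the GSK-J4 effect was.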

How the results depend on the processing

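With each array left out in turn, the number of HIF targets that rose with GSK-J4 ranged from 2 to 8, that of glycolysis genes from 0 to 8, that of members that fell with KDM6B siRNA from 0 to 11, that of members that rose with it from 0 to 2, and that of members whose effects differed from 2 to 16. A group left with 1 array adds nothing to the shared spread. The methods' t test after Benjamini-Hochberg called 0 genes in either comparison. Unadjusted, it called 9 HIF targets and 9 glycolysis genes higher with GSK-J4, where 3324 of all genes (18.8%) were called in either direction. It called 6 members lower with KDM6B siRNA, where 1257 of all genes (7.11%) were called in either direction. The single glycolysis gene that rose became 2 with quantile normalization, a robust prior or dim genes left out, 3 with an intensity trend, 5 in the fit on 4 arrays and 8 with array weights. The call of LOX with KDM6B siRNA was lost (0 members) in the fit on 4 arrays and with array weights. Over all genes, GSK-J4 against DMSO called 654 genes, and 1908 in the fit on 4 arrays, 2116 with array weights and 2537 with 1 KDM6B siRNA array left out. KDM6B siRNA against control siRNA called 107 genes, and 27 with array weights, 0 in the fit on 4 arrays, 3518 without KDM6B siRNA replicate 1 and 966 without replicate 2. No member fell with GSK-J4, and none had a lower GSK-J4 effect, in any of these settings.

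The replicate numbers only name the arrays, since correlations of same-numbered deviations lay between -0.036 and 0.088. With the replicate number as a block, 7 HIF targets and 2 glycolysis genes rose with GSK-J4, 0 members fell with KDM6B siRNA and 5 members differed in effect.

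Signs turned only for values near 0 or with 1 array missing. With KDM6B siRNA and each array left out in turn, ARNT ranged from -0.22 to 0.34, with the negative value without KDM6B siRNA replicate 1, and SLC2A1 from -1.27 to 0.021, with the positive value without KDM6B siRNA replicate 2. COXFA4L2 ranged from -0.16 to 0.23 there, being -0.16 without control siRNA replicate 2 and -0.10 without KDM6B siRNA replicate 2. The difference between effects ranged from -0.069 to 0.50 for ARNT, with the negative value without KDM6B siRNA replicate 2. For SLC2A3 it ranged from -0.49 to 0.49, being -0.075 without DMSO replicate 1, -0.014 without GSK-J4 replicate 1, -0.076 without control siRNA replicate 2 and -0.49 without KDM6B siRNA replicate 1, and it was -0.0198 with quantile normalization.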
